A study of Homo sapiens with 18 samples.

Results

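The PARP family and the hydrolase PARG were followed at the level of RNA in T47D, a luminal breast carcinoma line that carries the estrogen receptor. The 10 genes were listed by name: PARP1, PARP2, PARP3, PARP4, PARP6, PARP8, PARP16, the tankyrases TNKS and TNKS2, and PARG. They were matched by symbol among the 58884 gene identifiers of the count data, and all 10 were found and tested in each comparison. The 2 genotypes, WT and PARP1 KO, were exposed for 48 hours to niraparib at 10 μmol/L, to olaparib at 10 μmol/L or to the vehicle DMSO, with 3 libraries of polyadenylated RNA in each of the 6 groups. The WT libraries are all labelled T47D AAV and the PARP1 KO libraries all T47D JL, so that the name of the line coincides with the genotype. What AAV and JL stand for, whether the knockout line is a clone and whether the WT line went through the same steps are not given in the sources used here. The loss of PARP1 and other differences between the lines therefore cannot be told apart. The methods describe several dishes for each condition but tie no library to a dish, so P values measure the spread between these libraries. Library totals lay between 28890837 and 52251288 counts.

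ADP-ribosyltransferases of the PARP family move ADP-ribose from NAD+ onto proteins and nucleic acids. PARP1 and PARP2 are switched on by DNA breaks and build chains of ADP-ribose that recruit repair factors, and PARP3 also responds to DNA breaks but adds single units. Tankyrases build chains on proteins of telomeres, of the mitotic spindle and of Wnt signaling, which can then be ubiquitinated and degraded. PARP4 is a component of vault particles, while PARP6, PARP8 and PARP16 add single units, PARP16 at the membrane of the endoplasmic reticulum. PARG is the main hydrolase that takes the chains apart. Niraparib and olaparib are inhibitors that occupy the NAD+ site of PARP1. In cell lysates the authors found olaparib to bind PARP2 about as strongly as PARP1 and to engage PARP3, PARP4 and tankyrases. They report PARP1 as the main target of niraparib in the family.

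The label of the line was checked against markers. The 8 luminal markers were detected in each of the 18 libraries, with a median of 161 CPM (counts scaled to library size) for ESR1, the estrogen receptor, and of 3598 CPM for KRT8, a keratin of luminal cells. Basal and mesenchymal markers were near 0, with KRT5 at 0 in 14, KRT14 in 13 and ZEB1 in 10 of the 18 libraries and VIM at no more than 0.707 CPM. Among fibroblast markers COL1A1 lay between 88.3 and 153 CPM, whereas COL1A2 did not exceed 0.852 CPM and DCN did not exceed 0.179 CPM. No leukocyte or endothelial marker exceeded 0.185 CPM. For CD68 this says little, since 81.6% of its exon sequence overlaps a neighbour on the same strand, where reads were left uncounted.

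Before genes were compared, the libraries were compared with each other. The 18 pairs of libraries within a group had a chi-square per gene of at least 3.13, more than counting noise gives, so that all 18 were kept as separate libraries. In 3 libraries both pairs had at least 3 times the chi-square of the remaining pair of the group. These were WT DMSO replicate 1, WT niraparib replicate 2 and PARP1 KO niraparib replicate 3. Each count and each change was also computed without them, an alternative chosen after seeing the data, and values that pass or fail differently without them are given with both results. Alternatives counted for a single gene apply the adjusted P value alone, and stricter thresholds of fold change are not among them. Where the libraries of a gene are said not to overlap between groups, this describes the values and is not a test. The share of all genes without overlap was not counted, so a lack of overlap is no result where the test did not pass.

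PARP1 itself checks the genotype labels. PARP1 (ENSG00000143799, chr1:226360691-226408093, minus strand; all positions are of GRCh38) had 347, 373 and 368 CPM in the 3 WT libraries with DMSO and 24.7 ± 0.447 CPM (mean ± SD, n = 3) in PARP1 KO with DMSO. Across treatments the 9 WT libraries lay between 291 and 373 CPM and the 9 PARP1 KO libraries between 22.9 and 27.6 CPM, so that each library matched its label. With DMSO the PARP1 level of PARP1 KO was 6.82% of the WT level, with a 95% interval from 6.29% to 7.40%. The log2 difference was -3.87 ± 0.058 (SE; adjusted P = 1.7e-34, edgeR), by the quasi-likelihood test with Benjamini-Hochberg adjustment over all genes. A remainder of 687 to 1112 reads per PARP1 KO library was still assigned to PARP1. Counts per gene do not show which exons these reads cover. The pseudogenes PARP1P1 and PARP1P2 did not exceed 0.238 CPM in a library.

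Apart from PARP1, the genes did not pass the test between the genotypes with DMSO. Of the 10 genes 1 passed at an adjusted P value below 0.05, which was PARP1 and which also changed by more than 1.5-fold, against 1.39% of all 24675 genes tested at the adjusted P value and 0.146% with 1.5-fold added. At an unadjusted P value below 0.05 there were 3 of the 10, and DESeq2 passed 1. The log2 fold changes of the remaining 9 ran from -0.49 for PARP8 to 0.10 for PARP3, and the median of the 10 was -0.10 beside 0.00 over all genes. In place of 344 of all genes, those that passed were 108 (0.441%) without PARP1 KO DMSO replicate 1, 93 (0.379%) without PARP1 KO DMSO replicate 2, 144 (0.588%) without PARP1 KO DMSO replicate 3 and 51 (0.209%) without WT DMSO replicate 1. They were 175 (0.737%) without the 3 libraries that stand apart, 72 (0.292%) with the replicate number as a block, 742 with no filter on low counts and 680 of 12715 by DESeq2. PARP2, the nearest relative of PARP1 among the 10, had 48.1 ± 3.17 CPM in PARP1 KO and 49.7 ± 1.49 CPM in WT, with a 95% interval of the log2 fold change from -0.16 to 0.07. For PARG the interval ran from -0.11 to 0.12. TNKS and PARP16 were lower in each of the 3 PARP1 KO libraries than in each of the 3 WT libraries without passing, TNKS at -0.14 (adjusted P = 0.30, edgeR) and PARP16 at -0.20 (adjusted P = 0.25, edgeR).

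Levels were compared between genes only per exon length, as CPM divided by the exon length in kilobases (FPKM). That length covers all annotated exons of a gene. Which transcripts these cells make was not examined, so orders and shares between genes depend on the annotation. In WT with DMSO PARP1 was the highest at 50.5 ± 1.94 FPKM (mean ± SD, n = 3), followed by TNKS2 at 28.7 ± 1.08 FPKM, without overlap. PARG at 13.2 ± 0.847 FPKM and PARP2 at 12.1 ± 0.363 FPKM came next. They did not overlap but nearly met, with the lowest PARG library at 12.586 and the highest PARP2 library at 12.555 FPKM. PARP4 at 5.88 ± 0.127 FPKM lay above PARP16 at 5.10 ± 0.320 FPKM, which overlapped with PARP6 at 4.81 ± 0.678 FPKM, and PARP6 overlapped with TNKS at 4.20 ± 0.232 FPKM. PARP3 followed at 2.81 ± 0.343 FPKM without overlap. PARP8 was the lowest at 0.0506 ± 0.0125 FPKM, with 9 to 33 reads per WT library of any treatment, so that its changes are poorly determined.

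The order in the middle of the family differed between treatments. With niraparib in WT PARP6 came ahead of PARP4, PARP16 and TNKS at 7.73 ± 0.826 FPKM, and with olaparib PARP16 came ahead of PARP4, PARP6 and TNKS at 6.87 ± 0.300 FPKM, each without overlap. With olaparib PARP2 at 13.8 ± 0.0678 FPKM lay above PARG at 11.9 ± 0.357 FPKM, and with niraparib the 2 overlapped. In PARP1 KO with DMSO TNKS2 led with 27.6 ± 1.14 FPKM, followed without overlap by PARG at 13.3 ± 0.737 FPKM, PARP2 at 11.7 ± 0.774 FPKM and PARP4 at 5.96 ± 0.0867 FPKM. PARP16 and PARP6 overlapped at 4.44 ± 0.211 and 4.20 ± 0.453 FPKM. TNKS at 3.80 ± 0.105, PARP1 at 3.44 ± 0.0623 and PARP3 at 3.03 ± 0.101 FPKM followed without overlap, and PARP8 was again the lowest at 0.0360 ± 0.00410 FPKM. These orders are descriptions without a test.

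As a share of the summed FPKM of the 10 genes, PARP1 held 39.6% ± 1.33 (SD, n = 3) in WT with DMSO and 4.44% ± 0.0460 in PARP1 KO with DMSO. The sum itself was 127 ± 0.907 FPKM in WT and 77.6 ± 1.46 FPKM in PARP1 KO. With drug in WT the share of PARP1 was 32.9% ± 1.08 for niraparib and 35.1% ± 0.703 for olaparib. TNKS2 held 22.5% ± 0.967 with DMSO, 26.8% ± 0.479 with niraparib and 25.8% ± 0.413 with olaparib in WT. These shares are descriptions without a test.

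**Figure D1:**
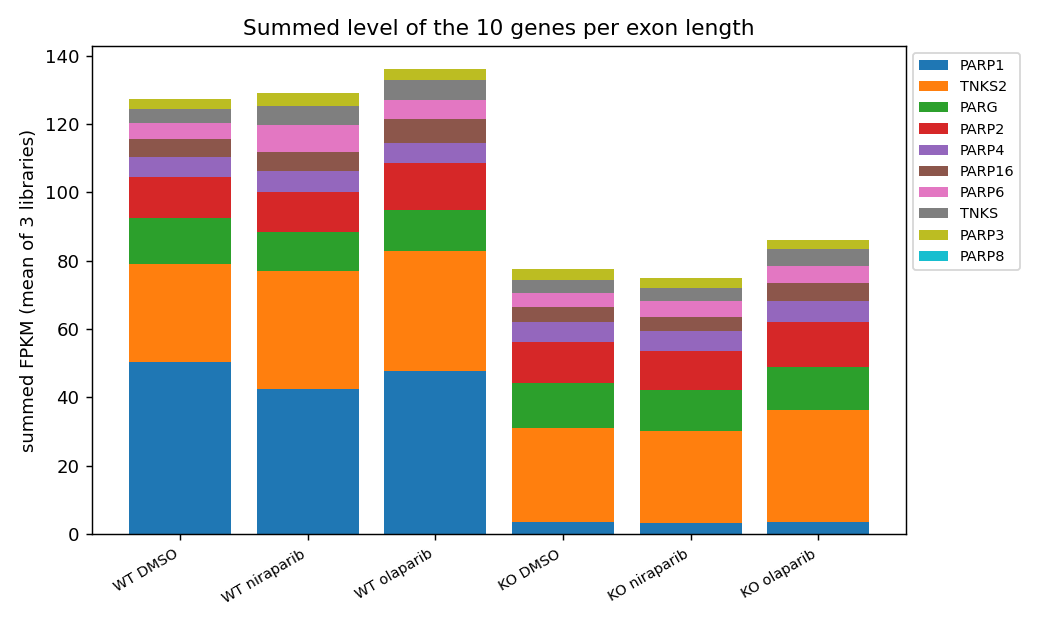
Stacked bars of the mean FPKM (CPM divided by the exon length in kilobases, y axis from 0) of the 10 genes in the 6 groups of 3 libraries (x axis; KO is PARP1 KO). PARP1 makes up 39.6% of the bar in WT with DMSO and 4.44% in PARP1 KO with DMSO.

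The WT comparisons ask how the family responds to each drug while PARP1 is present. With niraparib 4 of the 10 genes rose and 2 fell at an adjusted P value below 0.05, against 38% of all 22446 genes tested. PARP6 alone also changed by more than 1.5-fold, as did 13.8% of all genes. At an unadjusted P value below 0.05 there were 7 of the 10, and DESeq2 passed 6. The median log2 fold change was 0.21 over the 10 genes and -0.02 over all genes. With olaparib 4 of the 10 genes passed, each of them higher, against 19% of all genes, with 6 at an unadjusted P value below 0.05 and 5 by DESeq2. Their changes stayed below 1.5-fold, which 4.04% of all genes passed, and the medians were 0.17 over the 10 genes and -0.02 over all. Without the 3 libraries that stand apart 7 of the 10 passed with niraparib, against 42.0% of all genes in that fit, and 7 passed with olaparib, against 27.8%.

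Luminal markers moved with the drugs in the same libraries. With niraparib in WT 7 of the 8 luminal markers fell, and with olaparib 7 of 8 fell, where 38% and 19% of all genes passed in either direction and 4061 and 1745 of 22446 fell. Per exon length KRT19 was the most abundant of them in each of the 6 groups. Their summed level was 12328 to 12853 CPM with DMSO, 8836 to 9756 CPM with niraparib and 9640.4 to 10057 CPM with olaparib. In PARP1 KO it was 13672 to 14400, 12627 to 13000 and 11609 to 12683 CPM, and 4 of the 8, ESR1, KRT8, KRT18 and KRT19, fell with olaparib, where 8.29% of all genes passed. With niraparib in PARP1 KO 0 of the 8 passed (edgeR), with 3 at an unadjusted P value below 0.05 and 1 by DESeq2, against 0.109% of all genes. Between the drugs 3 of the 8, PGR, GATA3 and EPCAM, were lower with niraparib than with olaparib in WT, and 1, KRT8, was higher in PARP1 KO, where 32.2% and 10% of all genes passed. Between the genotypes with DMSO 1 of the 8, KRT8, was higher in PARP1 KO, against 1.39% of all genes, and DESeq2 passed 3. The markers of a count of 5 or fewer were named after their values were seen. In RNA from whole cultures fewer cells of a type and less RNA per cell cannot be told apart. The part of these markers in the changes of the 10 genes was not tested.

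Both tankyrases rose with both drugs in WT. TNKS (ENSG00000173273, chr8:9555912-9782346, plus strand) had 63.4, 58.0 and 57.5 CPM with DMSO, 81.1, 80.2 and 75.7 CPM with niraparib and 80.8, 80.7 and 81.8 CPM with olaparib. Each treated library lay above each control library. On the log2 scale TNKS changed by 0.41 ± 0.052 (SE; adjusted P = 1.4e-06, edgeR) with niraparib and by 0.45 ± 0.052 (SE; adjusted P = 2.5e-06, edgeR) with olaparib. TNKS2 (ENSG00000107854, chr10:91798426-91865475, plus strand) had 187, 174 and 176 CPM with DMSO, 216, 218 and 213 CPM with niraparib and 223, 215 and 219.6 CPM with olaparib, again without overlap between treated and control libraries. Its log2 change was 0.27 ± 0.045 (SE; adjusted P = 4.3e-05, edgeR) with niraparib and 0.30 ± 0.045 (SE; adjusted P = 6.0e-05, edgeR) with olaparib. Between the drugs neither gene passed in WT, and the 95% intervals of the log2 difference, niraparib against olaparib, ran from -0.15 to 0.07 for TNKS and from -0.12 to 0.07 for TNKS2.

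In PARP1 KO the tankyrases rose with olaparib, and neither passed with niraparib. TNKS had 54.9, 54.7 and 52.2 CPM with DMSO, 59.0, 52.2 and 54.0 CPM with niraparib and 80.1, 73.3 and 63.8 CPM with olaparib. The olaparib libraries lay above all others, and the niraparib libraries overlapped with DMSO. The log2 change of TNKS was 0.43 ± 0.070 (SE; adjusted P = 7.3e-04, edgeR) with olaparib and 0.03 (adjusted P = 0.93, edgeR) with niraparib. TNKS2 had 171, 166 and 180.3 CPM with DMSO, 177, 165 and 159 CPM with niraparib and 219.8, 207 and 184 CPM with olaparib, with the same pattern of overlap. TNKS2 changed by 0.24 ± 0.059 (SE; adjusted P = 0.014, edgeR) with olaparib and was at -0.04 (adjusted P = 0.88, edgeR) with niraparib. The olaparib change of TNKS2 did not pass without PARP1 KO DMSO replicate 1 or 2, or PARP1 KO olaparib replicate 1 or 2 (adjusted P from 0.061 to 0.10, edgeR). Between the drugs in PARP1 KO, niraparib was below olaparib with a log2 difference of -0.39 ± 0.070 (SE; adjusted P = 0.0010, edgeR) for TNKS and of -0.28 ± 0.059 (SE; adjusted P = 0.0035, edgeR) for TNKS2.

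Whether the drug effects differ between the lines was tested by the interaction of genotype and drug, the log2 change in PARP1 KO minus that in WT. For niraparib the interaction was -0.38 ± 0.089 (SE; adjusted P = 0.0013, edgeR) for TNKS and -0.32 ± 0.076 (SE; adjusted P = 0.0015, edgeR) for TNKS2. Both passed at the adjusted P value in each of the 24 alternatives, and neither reached 1.5-fold. For olaparib it was -0.02 for TNKS, with a 95% interval from -0.20 to 0.16, and -0.05 for TNKS2, with an interval from -0.21 to 0.10. The tankyrase response to niraparib thus differed between the lines, and a difference in the response to olaparib was not detected.

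**Figure D2:**
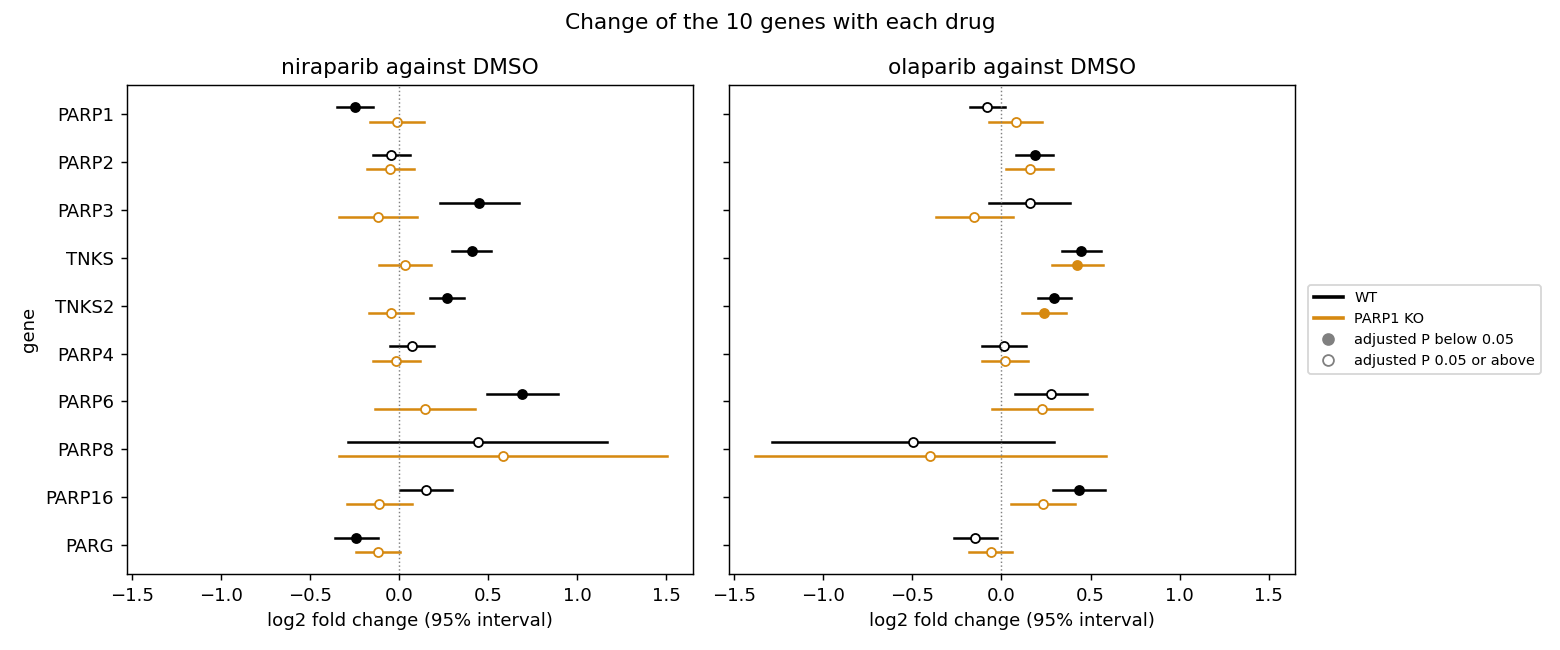
Log2 fold change against DMSO (x axis) with its 95% interval (line) for the 10 genes (y axis), with niraparib and with olaparib, in WT (black) and PARP1 KO (orange). Filled points have an adjusted P value below 0.05. TNKS lies at 0.41 with niraparib and 0.45 with olaparib in WT, and at 0.03 and 0.43 in PARP1 KO.

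The transferases that respond to DNA breaks did not move together. PARP1 fell with niraparib in WT to 313, 291 and 313 CPM, each library below each DMSO library, a log2 change of -0.25 ± 0.048 (SE; adjusted P = 2.1e-04, edgeR). With olaparib PARP1 had 337, 348 and 343 CPM, which overlapped with DMSO, at -0.08 (adjusted P = 0.28, edgeR). Without the 3 libraries that stand apart this passed, at -0.11 (adjusted P = 0.0043, edgeR), against adjusted P values up to 0.56 over its 16 alternatives. The interaction of PARP1 for niraparib was 0.23 ± 0.076 (SE; adjusted P = 0.023, edgeR), with the level in PARP1 KO at the remainder given above. It did not pass without those 3 libraries (0.17, adjusted P = 0.11, edgeR), nor without 1 of these libraries: PARP1 KO DMSO replicate 2, PARP1 KO niraparib replicate 3, WT DMSO replicate 2, or WT niraparib replicate 2 (adjusted P from 0.060 to 0.12, edgeR).

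PARP2 (ENSG00000129484, chr14:20343582-20357905, plus strand) rose with olaparib in WT, from 49.2, 48.6 and 51.4 CPM with DMSO to 56.3, 56.8 and 56.4 CPM. Each olaparib library was above each DMSO library, a log2 change of 0.19 ± 0.050 (SE; adjusted P = 0.010, edgeR). With niraparib it had 48.3, 48.3 and 48.2 CPM, below each DMSO library but at -0.04 (adjusted P = 0.54, edgeR). In WT the log2 difference of niraparib against olaparib was -0.23 ± 0.050 (SE; adjusted P = 8.9e-04, edgeR). In PARP1 KO PARP2 had 48.2, 44.9 and 51.3 CPM with DMSO, 47.1, 46.6 and 45.4 CPM with niraparib and 57.5, 52.1 and 51.5 CPM with olaparib. The olaparib libraries lay above DMSO, but the change of 0.16 did not pass (adjusted P = 0.14, edgeR). In that line the difference of niraparib against olaparib was -0.21 ± 0.063 (SE; adjusted P = 0.040, edgeR). It did not pass without the 3 libraries that stand apart (adjusted P = 0.089, edgeR) or with the replicate number as a block (adjusted P = 0.058). Nor did it pass without PARP1 KO DMSO replicate 1, PARP1 KO niraparib replicate 1, 2 or 3, or PARP1 KO olaparib replicate 1 or 2 (adjusted P from 0.053 to 0.18, edgeR). The interaction did not pass for either drug, at -0.01 for niraparib and -0.03 for olaparib.

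PARP3 (ENSG00000041880, chr3:51942345-51948867, plus strand) had 7.50, 9.38 and 7.83 CPM with DMSO in WT and 11.2, 12.3 and 10.4 CPM with niraparib, without overlap. It rose by 0.45 ± 0.11 (SE; adjusted P = 0.0017, edgeR) on the log2 scale. In PARP1 KO it had 8.63, 8.78 and 9.20 CPM with DMSO and 8.02, 8.83 and 7.62 CPM with niraparib, at -0.12 (adjusted P = 0.79, edgeR). The interaction for niraparib was -0.57 ± 0.15 (SE; adjusted P = 0.0031, edgeR), and without the 3 libraries that stand apart it was -0.39 (adjusted P = 0.085). It passed at the adjusted P value in the other alternatives, from an adjusted P value of 8.8e-04 (edgeR or DESeq2). With olaparib PARP3 was at 0.16 (adjusted P = 0.35, edgeR) in WT and at -0.15 (adjusted P = 0.45, edgeR) in PARP1 KO, where each olaparib library was below each DMSO library. Niraparib was above olaparib in WT by 0.29 ± 0.11 (SE; adjusted P = 0.041, edgeR). This difference did not pass without the 3 libraries (0.22, adjusted P = 0.081, edgeR) or with the block (adjusted P = 0.052). Nor did it pass without WT niraparib replicate 1 or 2, or WT olaparib replicate 1 or 2 (adjusted P from 0.085 to 0.17, edgeR).

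**Figure D3:**
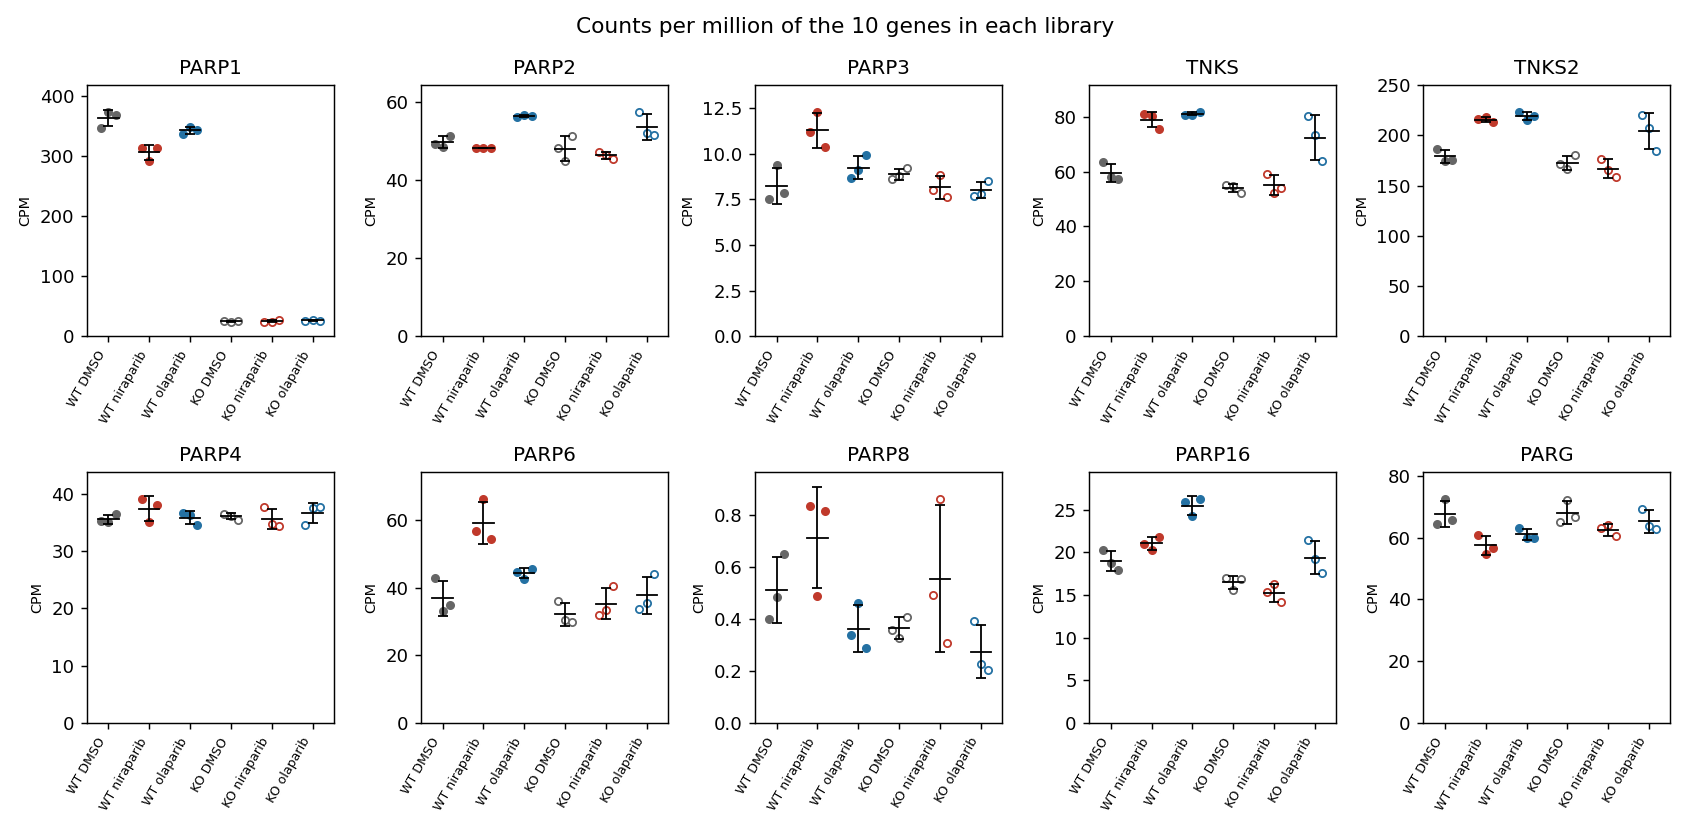
CPM (counts scaled to library size, y axis from 0, with its own scale in each panel) of the 10 genes in the 18 libraries of the 6 groups (x axis; KO is PARP1 KO). Points are libraries, filled for WT and open for PARP1 KO, with lines for the mean ± SD of 3 libraries. PARP1 lies between 22.9 and 27.6 CPM in PARP1 KO and between 291 and 373 CPM in WT.

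Of the transferases that add single units, PARP6 had the largest change of the 10 genes with niraparib in WT. PARP6 (ENSG00000137817, chr15:72241181-72272999, minus strand) had 42.7, 32.9 and 34.7 CPM with DMSO, 56.6, 66.3 and 54.4 CPM with niraparib and 44.5, 42.7 and 45.6 CPM with olaparib. Each niraparib library lay above each library of the other WT groups. Niraparib changed it by 0.69 ± 0.092 (SE; adjusted P = 4.1e-05, edgeR) against DMSO and by 0.42 ± 0.092 (SE; adjusted P = 0.0031, edgeR) against olaparib. Olaparib against DMSO was at 0.28 (adjusted P = 0.058, edgeR). It passed without the 3 libraries that stand apart (0.39, adjusted P = 2.4e-08, edgeR), with no filter on low counts (adjusted P = 2.2e-04) and by DESeq2 (adjusted P = 0.021). It also passed without WT DMSO replicate 1, or WT niraparib replicate 2 or 3 (adjusted P from 2.5e-04 to 0.036, edgeR). In PARP1 KO PARP6 had 36.1, 30.5 and 29.7 CPM with DMSO, 31.9, 33.2 and 40.5 CPM with niraparib and 33.6, 35.5 and 44.0 CPM with olaparib, with overlap between all groups. It was at 0.14 (adjusted P = 0.79, edgeR) with niraparib and at 0.23 (adjusted P = 0.35, edgeR) with olaparib, which passed with no filter on low counts (adjusted P = 0.034). Over the 16 alternatives these values ran from 0.023 to 0.23 with niraparib and from 0.10 to 0.32 with olaparib. The interaction for niraparib was -0.55 ± 0.18 (SE; adjusted P = 0.045, edgeR). It did not pass with the block (adjusted P = 0.064, edgeR) or with relative log expression size factors (adjusted P = 0.051). Nor did it pass without PARP1 KO DMSO replicate 1 or 2, PARP1 KO niraparib replicate 1 or 2, PARP1 KO olaparib replicate 2, WT DMSO replicate 2 or 3, WT niraparib replicate 1 or 2, or WT olaparib replicate 1, 2 or 3 (adjusted P from 0.052 to 0.11, edgeR). Of the exon bases of PARP6, 4.66% also belong to exons of a neighbour on its strand, and the other 9 genes share none.

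PARP6 also varied within groups alongside the share of counts on mitochondrial genes. In 5 of the 6 groups the library with the most PARP6 had the largest mitochondrial share, among shares from 4.39% to 5.68%. The exception was PARP1 KO with DMSO, where the library with the most PARP6 had the smallest share, 4.55%. In WT with DMSO, WT with niraparib and PARP1 KO with niraparib the library with the most PARP6 was the one that stands apart. The same ranking was not counted for other genes, so it is not shown to be particular to PARP6. The shares were 5.60%, 4.61% and 4.39% in WT with DMSO and 4.84%, 5.22% and 4.65% with niraparib. Their part in the change of PARP6 was not tested. The niraparib change in WT passed at the adjusted P value in each of the 16 alternatives, with log2 fold changes from 0.60 to 0.81.

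**Figure D4:**
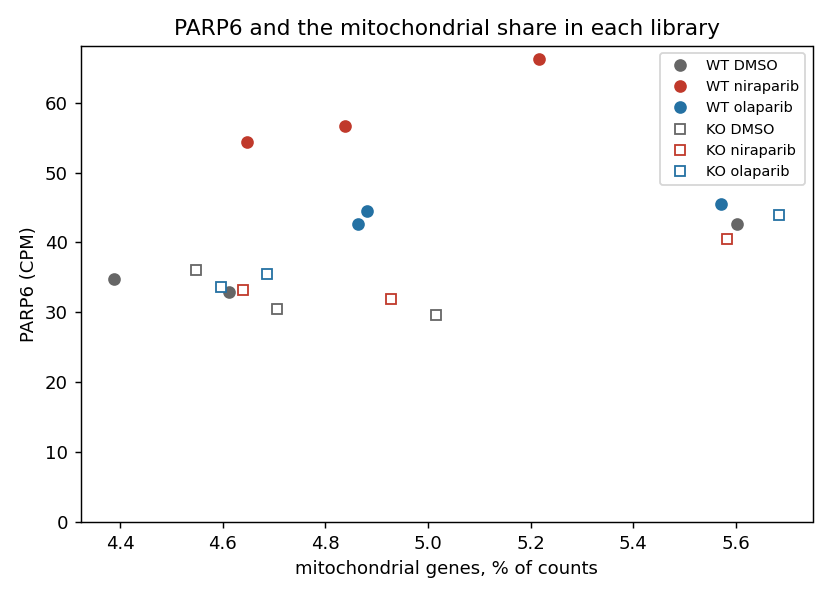
PARP6 in CPM (y axis from 0) against the share of counts on mitochondrial genes (x axis, %) in each of the 18 libraries (KO is PARP1 KO). The 3 WT niraparib libraries are the highest, at 56.6, 66.3 and 54.4 CPM.

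PARP16 (ENSG00000138617, chr15:65234460-65300618, minus strand), the transferase of the endoplasmic reticulum, rose with olaparib in WT. It had 20.2, 18.7 and 17.9 CPM with DMSO, 20.98, 20.3 and 21.9 CPM with niraparib and 25.97, 24.2 and 26.3 CPM with olaparib. Both sets of treated libraries lay above DMSO, and the olaparib libraries lay above those with niraparib. The log2 change was 0.43 ± 0.071 (SE; adjusted P = 1.3e-04, edgeR) with olaparib. With niraparib it was 0.15 (adjusted P = 0.099, edgeR), which passed without WT DMSO replicate 1 (0.20, adjusted P = 0.038) and without the 3 libraries that stand apart (0.23, adjusted P = 0.012). In WT the difference of niraparib against olaparib was -0.28 ± 0.070 (SE; adjusted P = 0.0031, edgeR). In PARP1 KO the gene had 17.01, 15.6 and 16.9 CPM with DMSO, 15.3, 16.3 and 14.1 CPM with niraparib and 21.4, 19.2 and 17.5 CPM with olaparib. The olaparib libraries were above all others of the line. Olaparib against DMSO was at 0.23 (adjusted P = 0.10, edgeR), which passed without PARP1 KO olaparib replicate 3 (adjusted P = 0.045, edgeR), and niraparib against DMSO at -0.11 (adjusted P = 0.76, edgeR). Between the drugs in PARP1 KO the difference was -0.35 ± 0.087 (SE; adjusted P = 0.013, edgeR), and it did not pass without the 3 libraries that stand apart (adjusted P = 0.059) or without PARP1 KO niraparib replicate 3, or PARP1 KO olaparib replicate 1 or 2 (adjusted P from 0.052 to 0.081, edgeR). The niraparib interaction was at -0.27 (adjusted P = 0.081, edgeR), and passed without PARP1 KO niraparib replicate 2, or WT DMSO replicate 1 (adjusted P from 0.044 to 0.049, edgeR).

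PARP4 (ENSG00000102699, chr13:24420931-24512778, minus strand) and PARP8 (ENSG00000151883, chr5:50665899-50846519, plus strand) did not pass in any of the 9 comparisons as fitted here. For PARP4 the log2 values lay between -0.09 and 0.07, with levels between 34.3 and 39.1 CPM. PARP8 had 0.204 to 0.861 CPM, from 6 to 33 reads per library, and standard errors of the log2 values from 0.35 to 0.61. In WT each niraparib library was above each olaparib library in PARP8, with a log2 difference of 0.94 (adjusted P = 0.057, edgeR). This passed with the filter of edgeR's filterByExpr (adjusted P = 0.048), without the 3 libraries that stand apart (1.17, adjusted P = 0.012), and without WT DMSO replicate 1, or WT niraparib replicate 2 (adjusted P from 0.024 to 0.048, edgeR). In PARP1 KO the difference of niraparib against olaparib was 0.98 (adjusted P = 0.21, edgeR), with a 95% interval from 0.03 to 1.93 and overlapping libraries. It was 0.50 without PARP1 KO niraparib replicate 2 (adjusted P = 0.69, edgeR). In the remaining 7 comparisons the 95% intervals of PARP8 included 0.

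PARG (ENSG00000227345, chr10:49818279-49970203, minus strand), the hydrolase among the 10, fell with niraparib in WT. It had 64.6, 72.6 and 65.8 CPM with DMSO, 60.8, 54.8 and 56.7 CPM with niraparib and 63.2, 60.02 and 60.01 CPM with olaparib. All treated libraries lay below all DMSO libraries. With niraparib the log2 change was -0.24 ± 0.058 (SE; adjusted P = 0.0021, edgeR). With olaparib it was -0.15 (adjusted P = 0.087, edgeR), which passed without the 3 libraries that stand apart (-0.18, adjusted P = 0.0029) and without WT DMSO replicate 1, or WT niraparib replicate 2 (adjusted P from 0.035 to 0.041, edgeR). In PARP1 KO PARG had 65.1, 72.3 and 66.8 CPM with DMSO and 63.0, 64.2 and 60.5 CPM with niraparib. PARG was lower in each of these niraparib libraries, but its change of -0.12 did not pass (adjusted P = 0.57, edgeR). With olaparib in PARP1 KO it was at -0.06 (adjusted P = 0.62, edgeR). The interaction for niraparib was 0.12, with a 95% interval from -0.05 to 0.28, so a difference between the lines was not detected. The pseudogene PARGP1 had 2.59 to 5.60 CPM, and reads that match both PARG and PARGP1 could be lost or assigned to either.

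In PARP1 KO niraparib left few genes of any kind past the test. Of the 10 genes 0 passed against DMSO (edgeR), 0 had an unadjusted P value below 0.05, the smallest being 0.061 for PARG, and DESeq2 passed 0. Among all 22037 genes 0.109% passed, 24 genes, and 0.0136% also changed by more than 1.5-fold. With 1 library left out the count of genes that passed ran from 8 to 57. It was 57 (0.263%) without PARP1 KO olaparib replicate 1, 11 (0.0511%) without PARP1 KO olaparib replicate 2, 40 (0.185%) without PARP1 KO olaparib replicate 3, 8 (0.0368%) without PARP1 KO niraparib replicate 1, 10 (0.0461%) without PARP1 KO niraparib replicate 2, 11 (0.0509%) without PARP1 KO DMSO replicate 1, 8 (0.0368%) without PARP1 KO DMSO replicate 2 and 10 (0.0461%) without PARP1 KO DMSO replicate 3. It was 11 with the block, 70 with all 18 libraries in the fit, 184 with no filter on low counts and 97 of 13065 by DESeq2. With olaparib 2 of the 10 passed, both of them tankyrases that rose, against 8.29% of all genes, with 4 at an unadjusted P value below 0.05 and 2 by DESeq2. Neither reached 1.5-fold, which 0.803% of all genes did. In place of 1827 genes, 849 (3.95%) without PARP1 KO olaparib replicate 2, 792 (3.65%) without PARP1 KO DMSO replicate 2 and 933 (4.30%) without PARP1 KO DMSO replicate 3 passed with olaparib. The medians were -0.03 over the 10 and 0.01 over all genes with niraparib, and 0.12 and 0.01 with olaparib.

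Between the drugs in WT 2 of the 10 genes, PARP3 and PARP6, were higher and 3, PARP1, PARP2 and PARP16, were lower with niraparib than with olaparib, against 32.2% of all genes. PARP1 differed by -0.17 ± 0.048 (SE; adjusted P = 0.0083, edgeR). There were 6 at an unadjusted P value below 0.05 and 5 by DESeq2, and 8.95% of all genes but none of these 5 passed 1.5-fold. The medians were -0.03 and 0.02 over all. In PARP1 KO 4 of the 10, TNKS, TNKS2, PARP2 and PARP16, were lower with niraparib than with olaparib, against 10% of all genes, with 5 at an unadjusted P value below 0.05 and 4 by DESeq2. These 4 also stayed below 1.5-fold, which 1.07% of all genes passed, and the medians were -0.09 and 0.00 over all. Without the 3 libraries that stand apart 2 of the 10 passed, against 9.56% of all genes. Over all genes the count in place of 2203 was 1273 (5.92%) without PARP1 KO olaparib replicate 2 and 1142 (5.27%) without PARP1 KO niraparib replicate 2. The comparisons within a line share libraries and are not independent of each other.

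The niraparib interaction passed for 5 of the 10 genes, against 22.9% of all 24675 genes. PARP1 had a higher value in PARP1 KO, and PARP3, TNKS, TNKS2 and PARP6 had lower ones. At an unadjusted P value below 0.05 there were 6, and DESeq2 passed 5. With 1.5-fold added 8.88% of all genes passed and none of these 5. Without the 3 libraries that stand apart 3 of the 10 passed, against 21.8% of all genes. The medians were -0.18 over the 10 and 0.03 over all genes. In the same test 5 of the 8 luminal markers passed, ESR1, PGR, GATA3, FOXA1 and KRT8, each with a higher value in PARP1 KO, and 2 of them, PGR and GATA3, passed 1.5-fold. The median of the 8 was 0.35, and their part in the interaction of the 10 genes was not tested. For olaparib 0 of the 10 passed the interaction (edgeR), with 2 at an unadjusted P value below 0.05 and 0 by DESeq2, against 2.27% of all genes and 0.657% with 1.5-fold added. Over all genes the count in place of 559 was 899 (3.67%) without PARP1 KO olaparib replicate 1, 284 (1.16%) without PARP1 KO olaparib replicate 2, 329 (1.34%) without PARP1 KO DMSO replicate 2, 322 (1.32%) without WT olaparib replicate 1, 291 (1.19%) without WT olaparib replicate 2 and 292 (1.19%) without WT DMSO replicate 1. It was 1094 with no filter on low counts and 1011 of 14150 by DESeq2. The 2 with an unadjusted P value below 0.05 were PARP1, at 0.16 (adjusted P = 0.28, edgeR), and PARP3, at -0.31 (adjusted P = 0.30, edgeR). Of the luminal markers 3 of 8 passed the olaparib interaction, ESR1, PGR and GATA3, each with a higher value in PARP1 KO.

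Genes with the most similar pattern of group means were found for PARP1 and for PARP6, the gene of the 10 that passed 1.5-fold with a drug. The measure was the root mean square difference of centred log2 CPM over the 6 group means, among 13487 genes whose mean CPM over the 18 libraries reached 1. For PARP6, whose group means spanned 0.88 on the log2 scale, ZNF175, CSRNP2 and DTX3 were the closest, at differences from 0.0360 to 0.0403. For PARP1, whose group means spanned 3.89, the closest were TNFAIP3, YPEL4 and IGHE, at differences from 1.39 to 1.41, so that no gene came near its pattern.

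Promoters are shown to set their sequence beside these values. They are those of TNKS2, PARP2 and PARP16, 3 of the genes that rose with olaparib in WT. PARP6 was added, which changed most of the 10 genes with niraparib in WT. The promoters come from RefSeq on GRCh38.p14, where 7 of the 10 genes matched a single entry. Each window holds 300 bases around the RefSeq start, most of them before it, written 5′ to 3′ on the strand of the gene, with capitals for GC boxes (GGGCGG or its reverse complement). The windows are TNKS2 at chr10:91798176-91798475 (plus strand), PARP2 at chr14:20343385-20343684 (plus strand), PARP16 at chr15:65286834-65287133 (minus strand) and PARP6 at chr15:72272505-72272804 (minus strand). The PARP16 and PARP6 windows lie within the Ensembl extents of these genes.
TNKS2: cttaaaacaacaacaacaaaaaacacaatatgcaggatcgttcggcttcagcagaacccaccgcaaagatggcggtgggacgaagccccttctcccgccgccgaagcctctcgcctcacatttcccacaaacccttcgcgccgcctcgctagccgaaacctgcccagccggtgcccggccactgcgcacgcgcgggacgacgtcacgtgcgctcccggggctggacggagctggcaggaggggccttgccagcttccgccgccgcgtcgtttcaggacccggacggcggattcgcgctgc
PARP2: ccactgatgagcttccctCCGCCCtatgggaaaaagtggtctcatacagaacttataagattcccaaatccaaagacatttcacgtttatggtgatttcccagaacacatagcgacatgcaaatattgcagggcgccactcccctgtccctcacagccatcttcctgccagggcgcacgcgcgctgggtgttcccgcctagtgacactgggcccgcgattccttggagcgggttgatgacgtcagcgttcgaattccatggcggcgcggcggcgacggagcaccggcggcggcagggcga
PARP16: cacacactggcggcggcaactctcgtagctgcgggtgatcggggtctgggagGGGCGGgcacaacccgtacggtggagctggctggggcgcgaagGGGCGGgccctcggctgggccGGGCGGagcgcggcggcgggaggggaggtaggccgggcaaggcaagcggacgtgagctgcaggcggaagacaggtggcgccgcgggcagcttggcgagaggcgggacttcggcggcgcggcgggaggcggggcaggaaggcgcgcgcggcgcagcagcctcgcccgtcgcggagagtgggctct
PARP6: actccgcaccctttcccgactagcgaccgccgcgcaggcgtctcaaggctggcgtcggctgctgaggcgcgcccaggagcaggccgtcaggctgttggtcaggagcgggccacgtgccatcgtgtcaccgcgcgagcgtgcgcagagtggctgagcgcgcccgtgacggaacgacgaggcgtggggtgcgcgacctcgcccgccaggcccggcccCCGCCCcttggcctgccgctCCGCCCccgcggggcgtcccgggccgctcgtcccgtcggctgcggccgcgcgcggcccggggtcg
GC boxes were found 3 times in the PARP16 window, 2 times in that of PARP6, 1 time in that of PARP2 and not in that of TNKS2. Of 35116 promoters of this length 45% hold at least 1. A CCAAT box (CCAAT, in 34.6% of promoters), an ETS motif (CCGGAAG, in 10.3%) and a TATA box (TATAAA, in 11.5%), each searched on both strands, had no match in these 4 windows. Of the other 3 windows, which are not shown, that of PARG holds 1 CCAAT box and 2 ETS motifs, that of PARP3 holds 1 ETS motif, and that of PARP1 holds 2 GC boxes. A match describes letters and not a bound site.

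The other genes of the pathway were taken as lists, and each count stands beside the share of all genes that passed the same comparison. Genes past 1.5-fold are given with their values, and those of a count of 5 or fewer in a pathway list are named as well, which was chosen after their values were seen. Of the 8 other transferases of the family 7 were tested. With niraparib in WT 4 rose, TIPARP, PARP9, PARP10 and PARP12, with a list median of 0.16 on the log2 scale, where 38% of all genes passed. With olaparib in WT 0 passed (edgeR), with 1 at an unadjusted P value below 0.05 and 0 by DESeq2, against 19% of all genes. Between the drugs in WT 3 were higher with niraparib and 1 lower (TIPARP, PARP9, PARP11 and PARP12 in all), against 32.2% of all genes. PARP11, a transferase of single units, was the gene of this list past 1.5-fold, between the drugs in WT. It had 2.004 ± 0.0814 CPM with niraparib and 3.16 ± 0.531 CPM with olaparib (mean ± SD, n = 3), a log2 difference of -0.67 ± 0.19 (SE; adjusted P = 0.010, edgeR). The difference did not pass without WT olaparib replicate 1 (adjusted P = 0.077, edgeR).

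Of the 8 other enzymes that remove or cleave ADP-ribose, 1 rose, ADPRS, and 3 fell, MACROD1, MACROD2 and NUDT16, with niraparib in WT, with a list median of -0.07, where 38% of all genes passed. With olaparib in WT 1 passed, MACROD2, which fell, against 19% of all genes. MACROD2 is a hydrolase of single ADP-ribose units. It had 3.65 ± 0.317 CPM with DMSO, 2.44 ± 0.191 CPM with niraparib and 2.54 ± 0.144 CPM with olaparib in WT. In PARP1 KO it had 2.72 ± 0.160 CPM with DMSO and 3.16 ± 0.181 CPM with niraparib. Its niraparib interaction was 0.79 ± 0.22 (SE; adjusted P = 0.0073, edgeR), and 3 of the list, MACROD1, MACROD2 and NUDT16, passed that interaction, against 22.9% of all genes.

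Of the 11 genes of the cofactor, readers and partners of PARP1 and PARP2, 2 rose, XRCC1 and APTX, and 2 fell, LIG3 and PARPBP, with niraparib in WT, against 38% of all genes. With olaparib in WT 2 rose, XRCC1 and TIMELESS, against 19% of all genes. Between the drugs in WT 7 passed, 3 higher with niraparib and 4 lower, against 32.2% of all genes. APTX, aprataxin, clears abortive ends left by DNA ligases. It had 37.6 ± 1.07 CPM with DMSO and 54.8 ± 0.936 CPM with niraparib in WT. In PARP1 KO it had 40.5 ± 0.465 CPM with DMSO and 38.6 ± 1.44 CPM with niraparib. The interaction of APTX for niraparib was -0.62 ± 0.078 (SE; adjusted P = 1.3e-07, edgeR), and 3 of the list, XRCC1, LIG3 and APTX, passed it, against 22.9% of all genes.

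Of the 11 partners and substrates of tankyrases, 3 rose, AMOT, AMOTL1 and RNF146, and 3 fell, NUMA1, TNKS1BP1 and BABAM1, with niraparib in WT, against 38% of all genes. For BABAM1 32.9% of the exon sequence overlaps a neighbour on its strand and was left uncounted. With olaparib in WT 3 rose, AXIN1, AMOT and AMOTL1, and 1 fell, TNKS1BP1, against 19% of all genes. The angiomotins AMOT and AMOTL1, scaffold proteins whose stability tankyrases control, were those past 1.5-fold. AMOT had 4.96 ± 0.175 CPM with DMSO and 8.58 ± 0.681 CPM with niraparib in WT, a log2 change of 0.79 ± 0.12 (SE; adjusted P = 2.3e-05, edgeR). AMOTL1 had 27.2 ± 2.22 and 47.5 ± 1.74 CPM, a change of 0.80 ± 0.066 (SE; adjusted P = 2.7e-09, edgeR). In PARP1 KO AMOT had 6.54 ± 0.379 CPM with DMSO and 6.46 ± 0.406 CPM with niraparib, and AMOTL1 had 33.6 ± 1.24 and 36.7 ± 0.606 CPM. The niraparib interaction was -0.80 ± 0.17 (SE; adjusted P = 3.3e-04, edgeR) for AMOT and -0.67 ± 0.090 (SE; adjusted P = 3.8e-07, edgeR) for AMOTL1, so that both responses differed between the lines, as did 6 of the 11 in all, against 22.9% of all genes. For olaparib the interaction of AMOT was -0.62 ± 0.17 (SE; adjusted P = 0.040, edgeR). It did not pass with the block (adjusted P = 0.053, edgeR), nor without PARP1 KO DMSO replicate 1, 2 or 3, PARP1 KO olaparib replicate 1, 2 or 3, WT DMSO replicate 1, 2 or 3, or WT olaparib replicate 1 or 3 (adjusted P from 0.050 to 0.11, edgeR). Between the genotypes with DMSO 1 of the list was higher in PARP1 KO, AMOTL1, and 1 was lower, NUMA1, where 1.39% of all genes passed.

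Neighbours of PARP1 were listed within 500 kilobases on either side, 31 genes in all. Of the 15 that were tested between the genotypes with DMSO, 0 passed (edgeR), with 3 at an unadjusted P value below 0.05 and 0 by DESeq2, against 1.39% of all genes. With niraparib in WT 4 of 13 rose and 3 fell, against 38% of all genes. With olaparib in WT 4 rose and 2 fell, against 19%, and between the drugs in WT 4 were higher with niraparib and 5 lower, against 32.2%. The niraparib interaction passed for 5 of 15, against 22.9%. SDE2, a protein of DNA replication and RNA splicing, had 49.3 ± 2.52 CPM with DMSO and 89.8 ± 3.06 CPM with niraparib in WT, a log2 change of 0.87 ± 0.058 (SE; adjusted P = 8.6e-11, edgeR). Its interaction was -1.03 ± 0.082 (SE; adjusted P = 6.0e-12, edgeR) for niraparib and -0.49 ± 0.082 (SE; adjusted P = 5.9e-04, edgeR) for olaparib. ITPKB, an inositol trisphosphate kinase, had a log2 difference of niraparib against olaparib in WT of -0.75 ± 0.054 (SE; adjusted P = 6.9e-10, edgeR), and LINC01703 one of -0.70 ± 0.14 (SE; adjusted P = 3.2e-04, edgeR). The niraparib interaction of ITPKB was 0.42 ± 0.080 (SE; adjusted P = 1.2e-04, edgeR). Of the 7 pseudogene and divergent transcript entries of the 10 genes 4 were tested in WT. With niraparib 0 of them passed (edgeR), with 1 at an unadjusted P value below 0.05 and 0 by DESeq2, against 38% of all genes.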

How the data were processed

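Exons were counted by the authors, who per the file headers used featureCounts 2.0.0 with reverse strandedness and primary alignments on Ensembl release 96, after trimming with Trimmomatic, alignment to GRCh38 with STAR and duplicate marking with Picard. The deposited count files are marked as deduplicated, while the methods describe duplicates as identified and quantified, so that whether they were removed before counting is not settled by the sources used here. The deposited values are raw counts per gene. A read on exons shared by several genes of a strand was left uncounted, and reads that fit a gene and its copy may be lost or counted at either. Labels and methods differ on RNA input, medium and extraction kit, and the transcriptomics text of the methods names no knockout line.

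Of the 58884 identifiers 58472 were matched to a symbol. Tests used edgeR 4.0.16 in R 4.3.3, with TMM scaling, the robust quasi-likelihood F test and Benjamini-Hochberg adjustment over all genes that had over 10 counts summed across the libraries fitted. Comparisons within a genotype were fitted on its 9 libraries, and those across genotypes on all 18. A gene passed at an adjusted P value below 0.05. The SE was obtained from the log2 fold change and the F statistic. CPM and FPKM were computed from the counts with TMM library sizes. The method was also run on simulated counts, with the same spread for every gene and no library standing apart. Changes below 1.5-fold and changes in genes as low as PARP8 were not among those simulated. Beyond the 10 genes, up to 5 genes per list and comparison that passed and exceeded 1.5-fold were named by size, with the 3 nearest in pattern to PARP1 and PARP6. The members and lists were chosen with earlier results of these data known. Alternatives were RLE size factors, filterByExpr, no filter, DESeq2 1.42.0, other thresholds, all 18 libraries fitted together, each library left out in turn, and a block for the replicate number. Leaving out the 3 libraries that stand apart was chosen after seeing the data. A listed gene that passed the niraparib interaction is not reported here.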

Additional observations from a re-analysis of the deposited data

Results flagged for a closer look

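The results below are given because the change with a drug differed between WT and PARP1 KO by the interaction test (edgeR, adjusted P value below 0.05). Each value is the log2 fold change with the drug in PARP1 KO minus that in WT. For niraparib it was 0.23 for PARP1, -0.57 for PARP3, -0.38 for TNKS, -0.32 for TNKS2 and -0.55 for PARP6. Without the 3 libraries that stand apart TNKS, TNKS2 and PARP6 still passed, while PARP1 (adjusted P = 0.11) and PARP3 (adjusted P = 0.085) did not (edgeR). PARP6 did not pass in 14 of its 24 alternatives, with adjusted P values up to 0.11 (edgeR). Among the genes of the pathway lists and the neighbours of PARP1 that passed at more than 1.5-fold in a comparison it was, for niraparib, 0.79 for MACROD2, -0.62 for APTX, -0.80 for AMOT, -0.67 for AMOTL1, -1.03 for SDE2 and 0.42 for ITPKB. For olaparib it was -0.62 for AMOT and -0.49 for SDE2. Further genes of these lists passed the interaction but did not pass at more than 1.5-fold in any of the 9 comparisons. For niraparib TIPARP, PARP9, PARP12, XRCC1, RNF146 and COQ8A were lower, from -0.56 to -0.32, and MACROD1, NUDT16, LIG3, NUMA1, TNKS1BP1, BABAM1 and H3-3A were higher, from 0.25 to 0.57. For olaparib TIPARP, HPF1 and XRCC1 were lower, from -0.40 to -0.34, and TNKS1BP1 was higher, at 0.25. Of the 8 luminal markers 5 passed for niraparib and 3 for olaparib, all of them higher. Of all 24675 genes 5661 passed the niraparib interaction and 559 the olaparib interaction. With 1 library left out the count ran from 5040 to 5885 for niraparib. For olaparib it ran from 284 to 899, the lowest without PARP1 KO olaparib replicate 2 and the highest without PARP1 KO olaparib replicate 1.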

How the results depend on the processing

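With more than 1.5-fold required besides the adjusted P value, 1 of the 10 genes passed with niraparib in WT in place of 6. The count was then 0 with olaparib in WT, between the drugs in WT, with olaparib in PARP1 KO, between the drugs in PARP1 KO and for the niraparib interaction, in place of 4, 5, 2, 4 and 5 (edgeR). The counts at an unadjusted P value below 0.05 were 6, 6, 4, 5 and 6, and DESeq2 passed 5, 5, 2, 4 and 5 at the adjusted P value alone. With an absolute log2 fold change above 1.5 it was 0 in these 6 comparisons. Without the 3 libraries that stand apart, chosen after seeing the data, the count was 7 in place of 6 with niraparib in WT, 7 in place of 4 with olaparib in WT, 2 in place of 4 between the drugs in PARP1 KO and 3 in place of 5 for the niraparib interaction. With 1 library left out, it ranged from 1 to 3 with olaparib in PARP1 KO and from 2 to 4 between the drugs in PARP1 KO. For the niraparib interaction it ranged from 3 to 6. The share of all genes that passed then ran from 3.65% to 11.08%, from 5.27% to 10.7% and from 20.6% to 24.03%, in the same order. The cause of these changes was not tested.

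With the replicate number as a block, the counts were 6, 4 and 4 in WT (niraparib, olaparib, between the drugs) and 0, 2 and 3 in PARP1 KO. They were 1 between the genotypes, 4 for the niraparib interaction and 0 for the olaparib interaction (edgeR). Of all genes 36.0%, 17.1% and 30.1% passed in these fits in WT, and 0.0499%, 6.63% and 8.63% in PARP1 KO. The shares were 0.292% between the genotypes, 21.4% for the niraparib interaction and 1.67% for the olaparib interaction. Same-numbered libraries deviated together, at a correlation over 0.1, in 5 of 18 pairs (from -0.54 to 0.55). Of the 18 libraries 5 correlated best with their own number. Whether same-numbered libraries share more than a number cannot be decided from this, since each deviation is taken from a mean of 3 libraries. Among the 10 genes the block ended the pass of PARP3 between the drugs in WT (adjusted P = 0.052), PARP2 between the drugs in PARP1 KO (adjusted P = 0.058) and PARP6 in the niraparib interaction (adjusted P = 0.064, edgeR), and it changed no other pass among them.

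Over the 90 log2 fold changes of the 10 genes and 1680 alternatives at the adjusted P value alone, 1575 kept direction and side of the threshold, 42 no longer passed, 20 passed in addition and 43 changed sign, all 43 for values that passed in neither setting. Signs changed without the 3 libraries for PARP4 with niraparib in PARP1 KO (0.0078), PARG between the genotypes (-0.030) and PARP2 in the niraparib interaction (0.012). With the block they changed between the genotypes for PARP2 (0.0019), PARP4 (-0.0038) and PARG (-0.0028), and with filterByExpr for PARP2 in the niraparib interaction (0.0014).

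With 1 library left out, these log2 fold changes changed sign. With olaparib in WT PARP4 ranged from -0.0093 to 0.040. With niraparib in PARP1 KO PARP1 ranged from -0.073 to 0.033, TNKS from -0.013 to 0.070 and PARP4 from -0.053 to 0.0078. With olaparib in PARP1 KO PARP4 ranged from -0.0070 to 0.059. Between the drugs in PARP1 KO PARP3 ranged from -0.027 to 0.090 and PARP6 from -0.20 to 0.040. Between the genotypes PARG ranged from -0.039 to 0.062. In the niraparib interaction PARP2 ranged from -0.057 to 0.037 and PARP8 from -0.35 to 0.45. In the olaparib interaction PARP2 ranged from -0.079 to 0.022, TNKS from -0.097 to 0.063, TNKS2 from -0.11 to 0.014, PARP4 from -0.024 to 0.050, PARP6 from -0.17 to 0.049 and PARP8 from -0.25 to 0.31. PARP8 had 6 to 33 reads per library, and the part of depth in its changes of sign was not tested.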
